A study of Mus musculus with 6 samples.

Results

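The genes described here are 40 genes of the cell division cycle, 16 that act in DNA replication and 24 that act in mitosis, out of 20443 genes measured by RNA sequencing in medullary thymic epithelial cells (mTECs). They were chosen by name, with earlier results of these data known, and each of the 40 symbols was found in every library. The cells were sorted by flow cytometry from C57BL/6 mice aged 4 weeks. The 3 control libraries (Con_253, Con_261 and Con_264) came from Jmjd3fl/fl mice without Cre. The 3 Jmjd3-deficient libraries (cKO_262, cKO_263 and cKO_265) came from Jmjd3fl/fl-Foxn1-cre mice, in which Cre is driven by Foxn1, a gene of thymic epithelium. Both groups carry the floxed alleles, and no control carried Cre alone. Jmjd3 is a histone demethylase whose gene symbol is Kdm6b. The labels do not say whether a library holds 1 animal or a pool, so p-values measure only the spread between these libraries.

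Dividing cells first load the MCM helicase onto replication origins, then fire the origins and copy the DNA with nucleotides made on demand, and later condense, align and separate the chromosomes on a spindle. Many replication genes are switched on by E2F factors, and many mitosis genes through the cell cycle homology region (CHR) and CCAAT boxes of their promoters. In the medulla of the thymus, proliferating mTECs are known mainly as precursors and as transit-amplifying cells on the way to the Aire-positive stage.

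Promoters are shown for 6 members because replication and mitosis genes differ in the letters they carry. Each window runs from 250 bases before to 30 bases after the start in RefSeq (GRCm38.p6, the same assembly as mm10). Capitals mark the motifs searched on both strands. CHR was searched as TTTGAA and in its other form as TTCGAA. E2F was searched as TTCCCGC, in the second form as TTCGCGC, in another form as TTGCCGC and in the last form as TTGGCGC. The CCAAT box was searched by its letters, and overlapping matches count under each motif.
Psrc1, chr3:108383554-108383833, plus strand: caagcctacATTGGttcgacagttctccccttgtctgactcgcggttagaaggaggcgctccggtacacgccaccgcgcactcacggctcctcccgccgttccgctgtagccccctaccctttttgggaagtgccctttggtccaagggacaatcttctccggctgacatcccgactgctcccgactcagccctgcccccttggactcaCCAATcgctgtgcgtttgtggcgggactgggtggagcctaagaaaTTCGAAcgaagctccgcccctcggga
Ccnb2, chr9:70421525-70421804, minus strand: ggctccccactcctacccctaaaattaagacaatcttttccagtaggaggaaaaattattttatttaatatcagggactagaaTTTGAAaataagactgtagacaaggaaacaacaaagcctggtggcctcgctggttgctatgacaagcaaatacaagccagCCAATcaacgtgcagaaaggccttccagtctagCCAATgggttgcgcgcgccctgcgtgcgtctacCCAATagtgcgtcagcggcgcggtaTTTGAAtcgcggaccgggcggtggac
Cdk1, chr10:69352883-69353162, minus strand: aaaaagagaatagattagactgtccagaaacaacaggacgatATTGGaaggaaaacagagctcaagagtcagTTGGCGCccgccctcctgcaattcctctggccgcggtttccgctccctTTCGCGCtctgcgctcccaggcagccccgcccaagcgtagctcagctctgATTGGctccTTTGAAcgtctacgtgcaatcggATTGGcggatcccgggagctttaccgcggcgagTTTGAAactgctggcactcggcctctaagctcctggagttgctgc
Mcm7, chr5:138171854-138172133, minus strand: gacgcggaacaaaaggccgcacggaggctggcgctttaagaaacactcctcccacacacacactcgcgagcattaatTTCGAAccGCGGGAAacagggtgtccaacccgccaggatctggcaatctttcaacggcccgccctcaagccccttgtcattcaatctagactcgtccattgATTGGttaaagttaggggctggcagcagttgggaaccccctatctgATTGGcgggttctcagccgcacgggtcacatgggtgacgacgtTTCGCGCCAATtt
Rrm1, chr7:102441445-102441724, plus strand: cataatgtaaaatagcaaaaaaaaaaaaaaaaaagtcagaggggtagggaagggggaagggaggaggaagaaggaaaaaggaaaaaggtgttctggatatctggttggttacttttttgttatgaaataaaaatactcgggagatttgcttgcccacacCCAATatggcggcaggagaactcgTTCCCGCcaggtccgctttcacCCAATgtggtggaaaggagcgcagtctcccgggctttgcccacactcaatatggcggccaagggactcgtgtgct
Mcm5, chr8:75109259-75109538, plus strand: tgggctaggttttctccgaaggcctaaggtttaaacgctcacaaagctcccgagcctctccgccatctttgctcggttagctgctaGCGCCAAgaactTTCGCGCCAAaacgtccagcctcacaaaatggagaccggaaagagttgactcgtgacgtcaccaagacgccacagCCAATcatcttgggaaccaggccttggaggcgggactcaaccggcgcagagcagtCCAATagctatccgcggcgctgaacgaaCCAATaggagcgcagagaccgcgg

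Promoter windows were matched for 33 of the 40 members. CHR letters were found in 14 of 20 mitosis promoters (70.0%), in 3 of 13 replication promoters (23.1%) and in 13.6% of the 11601 windows of tested genes. E2F letters were found in 8 of 13 replication promoters (61.5%), in 3 of 20 mitosis promoters (15%) and in 14.2% of tested genes. A CCAAT box lay in 17 of 20 mitosis and 9 of 13 replication promoters, against 37.4% of tested genes. In the Psrc1 window the CHR letters TTCGAA ran from base 4 to base 9 and a CCAAT box from base -41 to base -37, with the start as base 0. Cdk1, which acts at the entry into mitosis, held CHR, E2F and CCAAT letters together. Such matches describe the sequence and do not show that a factor binds there.

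The values are taken as FPKM (fragments per kilobase, scaled by library), a unit read from the tool listed and from the values since no label or header names it, and depth is unknown. They summed to 461152 to 543156 in the control and 582835 to 641060 in the deficient libraries. Library values below follow the order Con_253, Con_261, Con_264 and cKO_262, cKO_263, cKO_265. The targeted gene Kdm6b was at 18.1, 17.1 and 9.998 FPKM in control and 11.1, 11.6 and 8.67 FPKM in deficient libraries, so the groups overlapped, and this value over the whole gene does not check the labels. The 8 mTEC markers summed to 6352 to 7355 FPKM in control and 6381 to 7909 FPKM in deficient libraries. H2-Aa made up most of that sum (4170.5 ± 253.5 and 4057.2 ± 424.1 FPKM, SD, n = 3 each). Epcam averaged 805.3 and 865.9 FPKM and Aire 325.7 ± 86.5 and 425.8 ± 97.0 FPKM (SD, n = 3 each), with controls first, and both overlapped between the groups. Of the 8 markers 6 lay higher and 2 lower in the deficient group. Cd80 was lower, at 61.7 and 52.9 FPKM, with overlap. Cd40 was higher without overlap, at 142.2 and 191.5 FPKM (limma adjusted p = 0.190), where 9.59% of all tested genes were higher without overlap. The 13 thymocyte markers, of a cell type that also divides, summed to 48.6 to 77.6 FPKM in control and 34.7 to 42.1 FPKM in deficient libraries. The 5 myeloid markers summed to 335.1 to 374.0 FPKM and to 262.8 to 290.9 FPKM, again with controls first, and Lyz2 made up most of that sum (344.6 ± 19.1 and 261.3 ± 17.5 FPKM, SD, n = 3 each). Aif1, another myeloid marker, lay the other way, at 4.73, 4.28 and 3.85 FPKM in control and 15.0, 16.1 and 10.1 FPKM in deficient libraries (log2 difference 1.46, limma adjusted p = 0.0555). None of the thymocyte markers was listed at 0 in a library, and the part of these cells in the results was not tested. In bulk RNA, a changed number of dividing cells and a changed amount of RNA per cell cannot be told apart.

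Of the 40 members, 39 had a mean of at least 0.5 FPKM and were tested with limma on log2(FPKM + 1), the scale of every log2 difference below (Jmjd3-deficient minus control). Only Psrc1, a microtubule-associated protein of the spindle, rose past an adjusted p of 0.05. Across all 15720 tested genes 12 passed (0.0763%), of which 3 rose (0.0191%) and 9 fell (0.0573%). With limma's array weights, which count some libraries more than others, 12 mitosis and 5 replication genes rose and 0 fell, where 8.70% of all tested genes rose and 10.5% fell. Among controls those weights were 8.72 for Con_261, 0.82 for Con_253 and 0.495 for Con_264, so Con_261 counted most. When genes of any level were tested, 0 mitosis and 0 replication genes passed, and 4 of all 20443 genes did. Among the 24 mitosis genes 20 lay higher and 4 lower in the deficient group, with a median log2 difference of 0.43. Among the 15 tested replication genes 12 lay higher and 3 lower, with a median of 0.16. Across all 15720 tested genes 7123 lay higher and 8597 lower, with a median of -0.04. When only genes averaging at least 5 FPKM were tested, the median was 0.02 over all 8932 genes. It was then 0.44 over 21 mitosis genes and 0.17 over 14 replication genes. At an unadjusted p under 0.05, 12 mitosis and 3 replication genes were higher and 0 of either group was lower, where 6.81% of all tested genes were higher and 7.82% lower. Control and deficient values were free of overlap for 8 mitosis and 3 replication genes, all higher in the deficient libraries. Of all tested genes, 9.59% were higher without overlap and 11.9% lower without overlap. The difference between the phases was not tested, since genes of a list are not replicates. The lists were chosen with earlier results of these data known, so these counts are a description only.

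**Figure D1:**
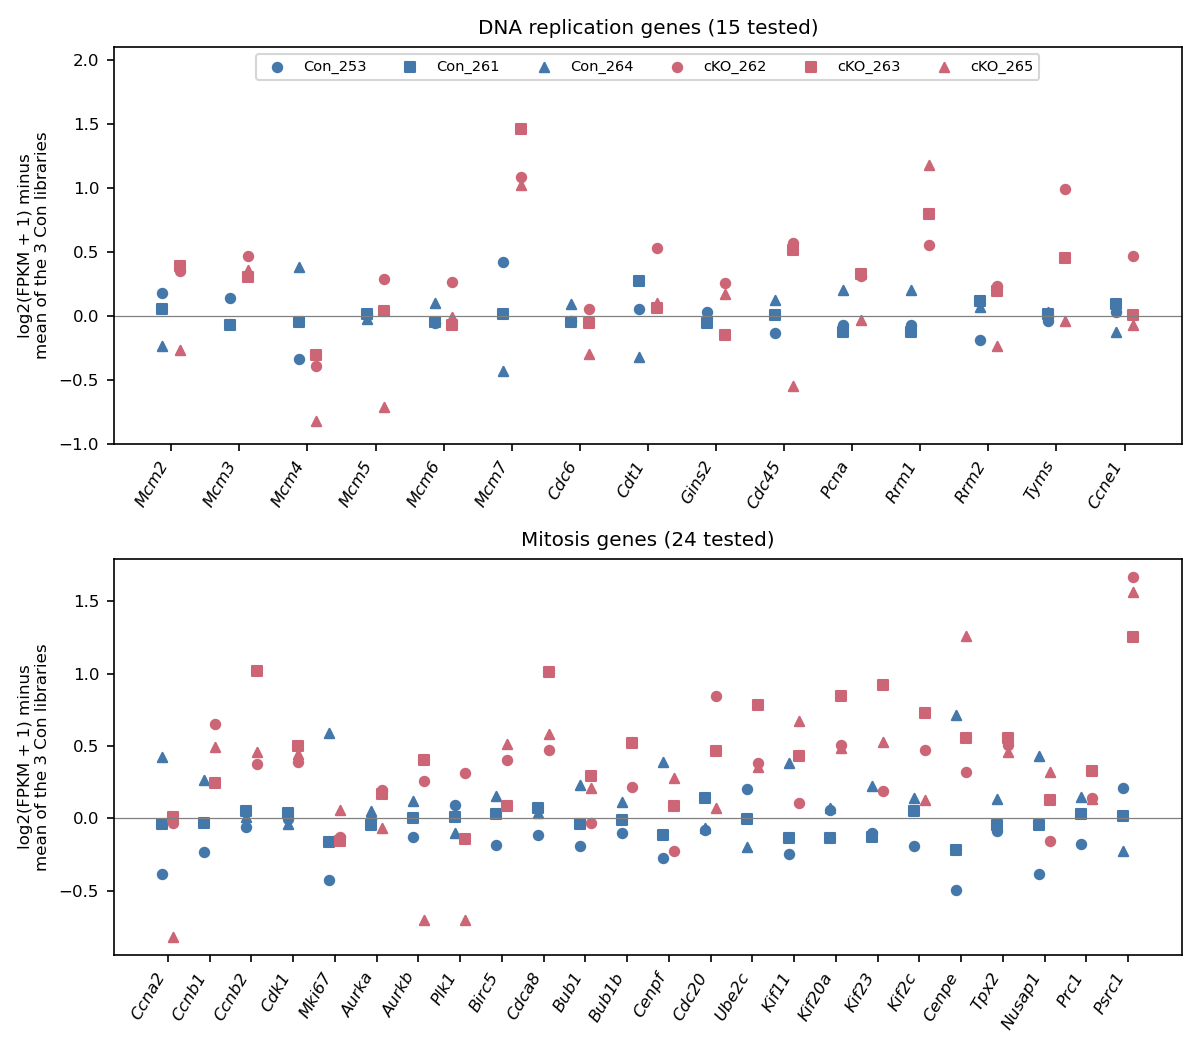
Value of each tested member in each library, as log2(FPKM + 1) minus the mean of the 3 control libraries, for DNA replication genes (top) and mitosis genes (bottom). Blue marks are control and red marks Jmjd3-deficient libraries. The median over mitosis genes is 0.32, 0.45 and 0.40 in the 3 deficient libraries, and for Psrc1 and Mcm7 each of them lies above each control.

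Seen by library, the median of the 24 mitosis genes relative to the control mean was -0.12, -0.02 and 0.14 in Con_253, Con_261 and Con_264 and 0.32, 0.45 and 0.40 in cKO_262, cKO_263 and cKO_265. All 3 deficient libraries lay above all 3 controls. For the replication genes the medians were -0.04, 0.01 and 0.03 in the controls and 0.35, 0.19 and -0.04 in the deficient libraries. Here cKO_265 lay within the range of the controls. It was the lowest deficient library for 10 of the 15 replication genes, and cKO_262 was the highest for 10. Without cKO_262 the replication median was 0.01, and without cKO_265 it was 0.30.

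The helicase genes Mcm2 to Mcm7 encode the 6 subunits of a ring that unwinds DNA, 1 copy of each. Mcm7 was at 235.1, 176.9 and 129.8 FPKM in control and 372.5, 483.2 and 357.4 FPKM in deficient libraries. Every deficient library lay above every control, with a log2 difference of 1.19 (SE 0.23), but the gene did not pass the threshold (limma adjusted p = 0.118). Its level in FPKM was 9.13 to 12.9 times the median of Mcm2 to Mcm6 within the control libraries and 18.2 to 27.5 times that median within the deficient ones. The Mcm7 gene (chromosome 5 from 138164589 to 138171862, mm10) also holds the microRNA genes Mir106b, Mir93 and Mir25 on its strand, and in GENCODE it overlaps Ap4m1 and Cops6 on the other strand. Since strand was not stated, reads of these genes cannot be told apart where they overlap. Cops6, the more abundant of these neighbours, averaged 146.5 FPKM in control and 163.8 FPKM in deficient libraries.

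**Figure D2:**
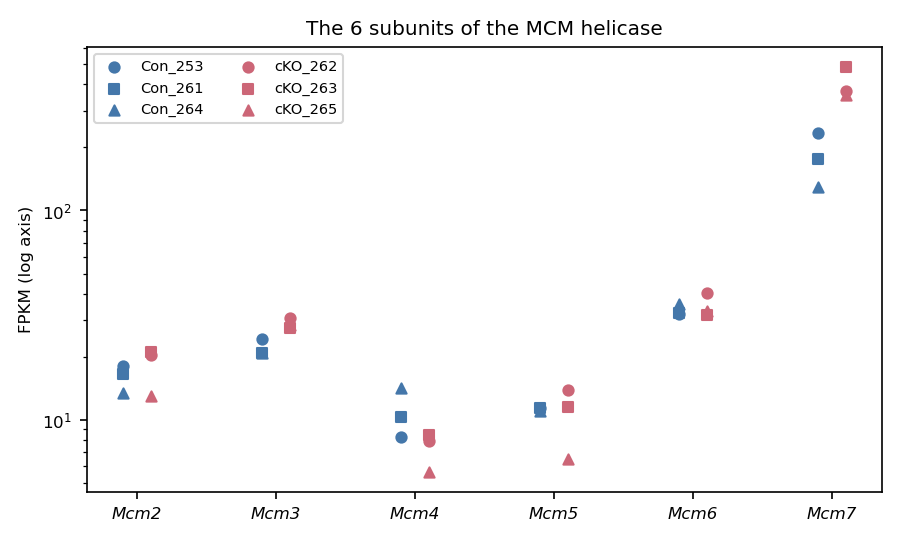
FPKM of the 6 helicase subunit genes in each library on a log axis, with control libraries in blue and Jmjd3-deficient libraries in red. Mcm7 lies between 129.8 and 483.2 FPKM, above the other subunits in every library.

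Of the other helicase subunits, Mcm3 was also higher in every deficient than in every control library. It was at 24.3, 20.8 and 20.95 FPKM in control and 30.8, 27.4 and 28.5 FPKM in deficient libraries (log2 difference 0.38, SE 0.14, limma adjusted p = 0.262). Mcm4 was at 8.28, 10.3 and 14.2 FPKM in control and 7.93, 8.47 and 5.63 FPKM in deficient libraries, and its log2 difference of -0.50 was the most negative of all members (limma adjusted p = 0.3535). Mcm2, Mcm5 and Mcm6 had log2 differences of 0.16, -0.13 and 0.06. For Mcm5 the control values were nearly equal, from 11.02 to 11.4 FPKM, while cKO_265 was at 6.499 and cKO_262 at 13.9 FPKM.

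Licensing and firing factors overlapped between the groups. Cdc6 and Cdt1, which load the helicase, had log2 differences of -0.10 (95% interval -0.50 to 0.30) and 0.23 (-0.24 to 0.70). Gins2 and Cdc45, partners of the active helicase, were at 0.09 and 0.18. Cdc45 was at 10.8 and 10.4 FPKM in cKO_262 and cKO_263 but at 4.45 FPKM in cKO_265, below every control. Pcna, the sliding clamp of the polymerases, averaged 75.2 ± 9.55 FPKM in control and 86.7 ± 11.7 FPKM in deficient libraries (SD, n = 3 each).

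Ribonucleotide reductase, built of the large subunit Rrm1 and the small subunit Rrm2, makes deoxynucleotides. Rrm1 was at 9.66, 9.23 and 11.8 FPKM in control and 15.4, 18.4 and 24.3 FPKM in deficient libraries. No deficient library reached down to a control (log2 difference 0.84, SE 0.19, limma adjusted p = 0.135). Rrm2 averaged 19.6 ± 2.32 and 20.7 ± 3.69 FPKM, and its log2 difference of 0.06 had a 95% interval of -0.34 to 0.47. Tyms, which makes thymidylate, was at 4.41 to 4.68 FPKM in control and 10.04, 6.61 and 4.40 FPKM in deficient libraries. Of the E-type cyclins, which drive cells into DNA replication, Ccne1 averaged 26.9 ± 2.19 FPKM in the controls and had a log2 difference of 0.13. Ccne2 was at 0.143 to 0.260 FPKM in control and 0.0300 to 0.184 FPKM in deficient libraries, too low to be tested.

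**Figure D3:**
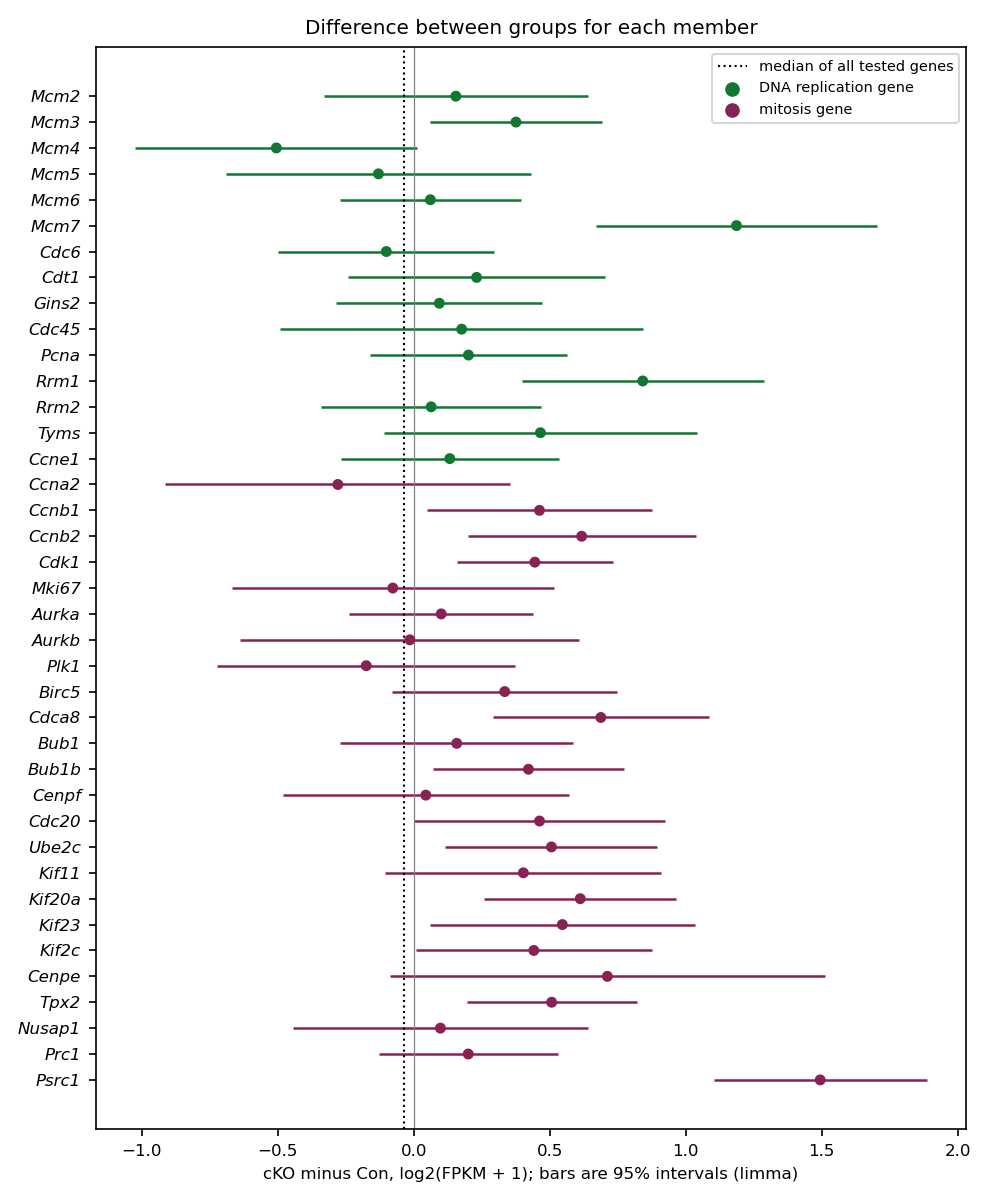
Difference between the Jmjd3-deficient and control groups for each of the 39 tested members on the log2(FPKM + 1) scale, with 95% intervals from limma that are not adjusted for the number of genes. The dotted line is the median of all 15720 tested genes (-0.04), and Psrc1 lies farthest from it at 1.49.

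Cdk1 is the kinase of mitotic entry, and the B-type cyclins Ccnb1 and Ccnb2 and the A-type cyclin Ccna2 are its partners. Cdk1 was at 31.2, 32.2 and 30.5 FPKM in control and 41.2, 44.7 and 43.0 FPKM in deficient libraries. Both groups were narrow and apart, with a log2 difference of 0.45 (SE 0.13, limma adjusted p = 0.183). Ccnb2 was at 43.0, 46.6 and 45.4 FPKM in control and 58.7, 92.0 and 62.25 FPKM in deficient libraries (log2 difference 0.62, SE 0.18, adjusted p = 0.2001). Ccnb1 was at 12.4, 14.4 and 17.9 FPKM in control and 23.7, 17.7 and 21.1 FPKM in deficient libraries, and the groups overlapped through Con_264 and cKO_263 (log2 difference 0.46). Ccna2 went the other way, at 11.8, 15.1 and 21.3 FPKM in control and 15.3, 15.8 and 8.41 FPKM in deficient libraries, with cKO_265 the lowest of all (log2 difference -0.28, 95% interval -0.91 to 0.36). Mki67, the antigen used to count cycling cells, was at 4.51, 5.59 and 10.1 FPKM in control and 5.75, 5.64 and 6.69 FPKM in deficient libraries. The deficient values lay inside the control range, with a log2 difference of -0.08 (95% interval -0.67 to 0.51). That difference was positive without Con_264 (0.22), with array weights (0.02) and when each library was centred on its median.

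The chromosomal passenger complex joins the kinase Aurkb with Birc5 and Cdca8 and directs it to the centromere. Cdca8, known as borealin, was at 15.9, 18.2 and 17.7 FPKM in control and 24.3, 35.7 and 26.3 FPKM in deficient libraries (log2 difference 0.69, SE 0.17, limma adjusted p = 0.1565). Birc5, known as survivin, was at 5.42 to 7.10 FPKM and 6.73 to 9.38 FPKM, and these ranges overlapped. Aurkb was at 22.0, 24.2 and 26.3 FPKM in control and 29.01, 32.1 and 14.4 FPKM in deficient libraries, on both sides of the controls. Plk1, a kinase of spindle assembly, showed a like spread, at 32.8, 23.6 and 15.7 FPKM in deficient libraries against 24.3 to 27.9 FPKM in the controls. Aurka, the kinase of the spindle poles, averaged 11.3 ± 0.426 and 12.2 ± 1.29 FPKM. Without cKO_265 the log2 differences of Aurkb and Plk1 were 0.33 and 0.09.

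The checkpoint kinase genes Bub1 and Bub1b hold back anaphase until chromosomes are attached, and Cdc20 and Ube2c are the activator and a conjugating enzyme of the anaphase-promoting complex. Ube2c was the most abundant mitosis gene, at 118.1, 102.6 and 89.2 FPKM in control and 134.4, 177.1 and 131.3 FPKM in deficient libraries. Its groups did not overlap (log2 difference 0.51, SE 0.17, limma adjusted p = 0.238). Bub1b was at 13.1, 14.03 and 15.4 FPKM and at 16.6, 20.8 and 20.85 FPKM, likewise apart (log2 difference 0.42, adjusted p = 0.261). Cdc20 was at 24.4, 28.7 and 24.7 FPKM in control and 47.2, 36.2 and 27.3 FPKM in deficient libraries, with cKO_265 inside the control range. Cdc20 overlaps Elovl1 on the other strand, and reads cannot be assigned where these genes overlap. Elovl1 averaged 19.5 FPKM in control and 26.2 FPKM in deficient libraries, higher without overlap of the groups (log2 difference 0.42). Bub1 and the kinetochore gene Cenpf had log2 differences of 0.16 and 0.04, and the sign of Cenpf turned in 4 refits.

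All 5 kinesins, a family of proteins that act on spindle microtubules, had higher mean values in the deficient libraries. The threshold was passed by 0 of them (limma). At an unadjusted p under 0.05, 3 were higher, where 6.81% of all tested genes were higher. Kif20a, a motor of cytokinesis, was at 23.7, 20.6 and 23.96 FPKM in control and 32.7, 41.6 and 32.2 FPKM in deficient libraries, with no overlap (log2 difference 0.61, SE 0.15, adjusted p = 0.1565). Kif20a overlaps the neighbouring gene Cdc23 on the other strand, which averaged 44.9 and 61.2 FPKM, and reads cannot be assigned where the genes overlap. Kif23, of the central spindle, was at 9.10, 8.93 and 11.7 FPKM in control and 11.3, 19.6 and 14.6 FPKM in deficient libraries (log2 difference 0.55). Kif2c, which takes microtubules apart at kinetochores, was at 10.98, 13.2 and 14.1 FPKM and at 18.01, 21.7 and 13.9 FPKM (log2 difference 0.44). Both pairs of groups overlapped, as did Kif11, which pushes the spindle poles apart (log2 difference 0.40). Cenpe, which carries chromosomes to the spindle equator, had the largest SE of the members (0.35), at 2.05, 2.69 and 6.04 FPKM in control and 4.37, 5.32 and 9.28 FPKM in deficient libraries (log2 difference 0.71, 95% interval -0.09 to 1.51).

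The spindle proteins held the gene that passed, which was known from earlier results of these data to be changed. Psrc1 was at 23.0, 20.02 and 16.8 FPKM in control and 65.1, 48.6 and 60.3 FPKM in deficient libraries. The lowest deficient library was above the highest control, and Psrc1 ranked 10 by p among the 15720 tested genes (log2 difference 1.49, SE 0.17, limma adjusted p = 0.0249). The difference stayed between 1.34 and 1.61 in 14 refits. The call was lost without Con_253 (adjusted p = 0.1097), Con_261 (0.162), Con_264 (0.175) or cKO_262 (0.0526), and when genes of any level were tested (0.137).

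Tpx2, which helps to nucleate spindle microtubules, was also free of overlap. It was at 17.5, 18.01 and 20.6 FPKM in control and 27.0, 27.9 and 26.0 FPKM in deficient libraries (log2 difference 0.51, SE 0.14, limma adjusted p = 0.174). Prc1, which bundles microtubules of the central spindle, had a log2 difference of 0.20 (95% interval -0.13 to 0.53). Nusap1, another microtubule-binding protein, was at 4.81 to 9.26 FPKM in control and 5.83 to 8.49 FPKM in deficient libraries, wholly inside the control range. The sum of Nusap1 joins 2 rows, and its log2 difference of 0.10 turned to -0.03 when the row with the higher mean alone was used.

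Psrc1 lies on chromosome 3 from 108383804 to 108388231 (mm10, plus strand, protein coding), with 0 overlapping genes in GENCODE. The 5 other genes with rows within 100 kb were read beside it. Mybphl, whose row ends 63 bases before Psrc1, was at 0.363 to 0.726 FPKM in control and 0.687 to 1.08 FPKM in deficient libraries. Celsr2, 2617 bases beyond its other end, had a log2 difference of -0.19 and Sars one of -0.06. Sort1 and 5330417C22Rik were lower in every deficient than in every control library, with log2 differences of -0.42 and -0.53 (limma adjusted p = 0.271 and 0.188). Among all tested genes 11.9% were lower without overlap. Thus 0 of these 5 genes passed the threshold (limma). An unadjusted p under 0.05 was found for 2, both with lower values, where 7.82% of all tested genes were lower at that p.

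**Figure D4:**
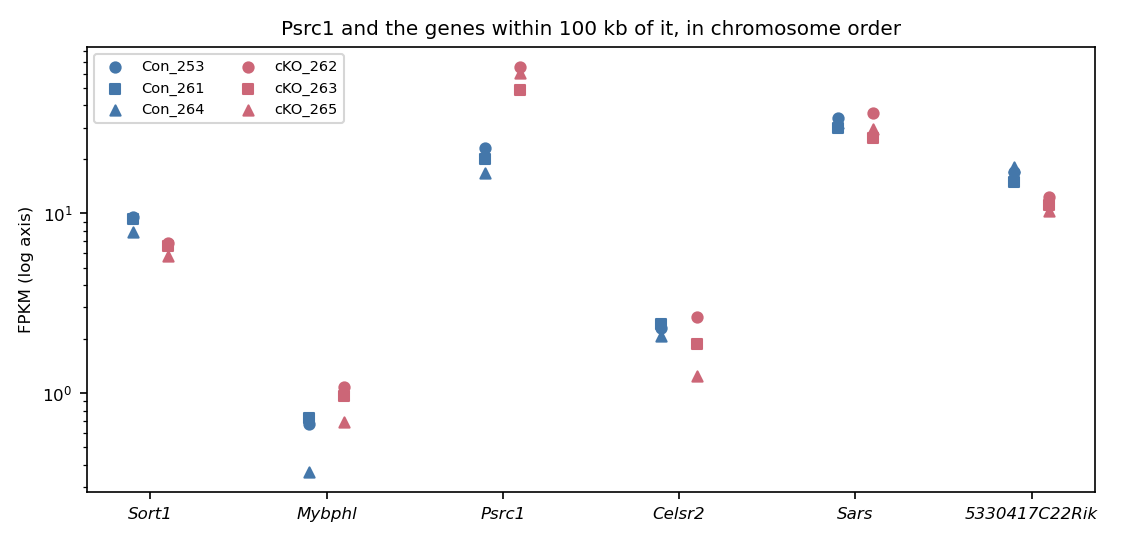
FPKM of Psrc1 and of the 5 other genes with rows within 100 kb of it, in each library on a log axis and in chromosome order. Control libraries are blue and Jmjd3-deficient libraries red, and Psrc1 alone has deficient values above 40 FPKM with controls of 16.8 to 23.0 FPKM.

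The rest of the cell cycle machinery was read from lists of other genes. Of 8 cyclins and kinases of G1, the growth phase before replication, 0 passed the threshold (limma). At an unadjusted p under 0.05, 3 were higher and 0 lower, where 6.81% of all tested genes were higher and 7.82% lower. The D-type cyclin gene Ccnd2 was at 190.1, 157.5 and 188.2 FPKM in control and 325.5, 254.03 and 303.0 FPKM in deficient libraries (log2 difference 0.71, SE 0.15, adjusted p = 0.125). Ccnd1 averaged 36.6 ± 1.42 and 54.4 ± 6.48 FPKM and Cdk2 25.3 ± 0.853 and 33.1 ± 3.68 FPKM, both without overlap, while Ccnd3 was at -0.25 on the log2 scale. Without overlap, 4 of the 8 genes were higher and 0 lower, where 9.59% of all tested genes were higher and 11.9% lower.

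Inhibitors of the cyclin-dependent kinases had higher values in 3 cases and lower values in 4. Cdkn1c, known as p57, was at 96.8, 96.0 and 60.9 FPKM in control and 51.2, 28.7 and 24.02 FPKM in deficient libraries (log2 difference -1.31, SE 0.29, limma adjusted p = 0.125). Cdkn1a, the p53 target known as p21, was at 58.1, 52.3 and 37.7 FPKM and at 94.2, 69.04 and 79.3 FPKM (log2 difference 0.71, SE 0.19, adjusted p = 0.174). Neither pair of groups overlapped. Of the 7 inhibitors 1 was higher and 1 lower without overlap, where 9.59% of all tested genes were higher and 11.9% lower without overlap. Cdkn2b and Cdkn1b were at 0.31 and -0.27. Of the 7 inhibitors 0 passed. With an unadjusted p under 0.05, 1 was higher and 1 lower, where 6.81% of all tested genes were higher and 7.82% lower.

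In the list of Rb, E2F and the DREAM and MuvB complexes, which switch cell cycle promoters on and off, 0 of 19 genes passed (limma). Only 1 gene was higher and 0 lower at an unadjusted p under 0.05, where 6.81% of all tested genes were higher and 7.82% lower. That gene was E2f4, an E2F mainly known as a repressor in resting cells, at 53.5, 40.1 and 39.9 FPKM in control and 96.8, 84.0 and 70.9 FPKM in deficient libraries (log2 difference 0.90, SE 0.18, adjusted p = 0.118). Rb1 and E2f6 were lower in every deficient than in every control library (log2 differences -0.38 and -0.26). They were 2 of the 19 genes, where 11.9% of all tested genes were lower without overlap. Mybl2 was at -0.34 with overlap. The list's median was 0.10.

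Other replication genes had a median log2 difference of 0.15, with 30 of 38 higher. Of these 0 passed (limma). There were 5 higher and 0 lower at an unadjusted p under 0.05, where 6.81% of all tested genes were higher and 7.82% lower. The smallest p was that of Dut, which clears dUTP from the nucleotide pool, at 22.8, 19.4 and 20.1 FPKM in control and 31.1, 38.4 and 42.8 FPKM in deficient libraries (adjusted p = 0.118). Pola2 and Prim2 of the primase complex and Gmnn, the inhibitor of Cdt1, had log2 differences of 0.55, 0.40 and 0.53.

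The remaining mitosis genes were read in 5 lists, of which the list for entry into mitosis had as many higher as lower values. Kinetochore and checkpoint genes were higher in 17 of 19 cases (median 0.25), and those with the smallest p were Zw10, Spc24, Spc25 and Cenph at 0.41, 0.43, 0.62 and 0.45. Cenpk had the largest difference of that list (0.70) with a larger p (0.0641), and was named after its value was seen. Spindle and cytokinesis genes were higher in 19 of 21 (median 0.21), and the smallest p was that of Kif22 at 0.77 with 43.1 ± 4.76 FPKM in control and 74.4 ± 11.5 FPKM in deficient libraries, and followed by Ckap2l, Tacc3 and Ckap2 at 0.42, 0.49 and 0.30. Cohesin, condensin and separation genes were higher in 15 of 16 (median 0.18), with Smc1a at 0.60, Rad21 at 0.29, Smc4 at 0.40 and Ncaph at 0.28. Genes of the anaphase-promoting complex were higher in 10 of 13 (median 0.15), with Cdc26, Cdc23, Anapc13 and Anapc4 at 0.64, 0.44, 0.74 and 0.43. Of the 8 genes of entry into mitosis 4 were higher (median 0.01), with Cdc25c, Chek2, Atr and Wee1 at 0.50, 0.51, 0.31 and -0.08. In these 5 lists 0 genes passed (limma), and 12 were higher and 0 lower at an unadjusted p under 0.05. Over all 15720 tested genes, 6.81% were higher and 7.82% lower at that p, and 7123 had higher values at any p.

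Libraries of 1 group also differed among themselves. For mitosis genes this moved with transcript length in the pair of libraries compared in each group, and other pairs were not compared. Con_264 was the highest control for 17 of the 24 mitosis genes and Con_253 the lowest for 17. Across these 24 genes, which share their libraries and are not replicates, the difference Con_264 minus Con_253 had a Pearson r of 0.69 and a Spearman rho of 0.56 with the log2 length of the longest coding transcript in GENCODE. Across 14790 tested genes with a length the same r was 0.28. The genes with the longest transcripts, Cenpf (11130 bases), Mki67 (10061 bases) and Cenpe (7910 bases), were 0.66, 1.02 and 1.21 higher in Con_264 than in Con_253 on the log2 scale. Between cKO_265 and cKO_262 the r over mitosis genes was 0.59, and it was -0.01 over all tested genes. For the group difference r was -0.26 over mitosis genes and -0.13 over all tested genes. The part of length in the group differences was not tested.

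**Figure D5:**
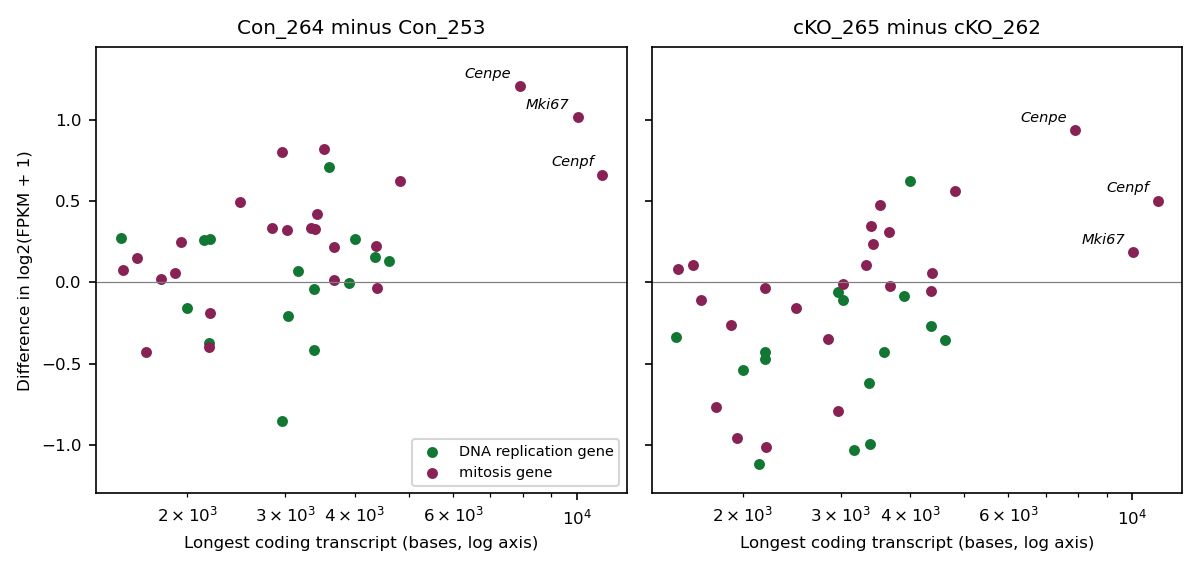
Difference between 2 libraries of the same group against the length of the longest coding transcript (bases, log axis), for controls (left) and Jmjd3-deficient libraries (right). Each point is a tested member, and among mitosis genes the longest transcripts, Cenpf, Mki67 and Cenpe, lie above 0 in both panels.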

How the data were processed

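RNA from flow-sorted mTECs was amplified with a whole-transcriptome kit for small inputs and sequenced on an Illumina instrument, per the labels' protocols. The authors deposited 1 table per library, whose values are taken as FPKM because Cufflinks is listed and the values fit that unit, while no label or header names it. Bowtie2 2.2.5 and Cufflinks are listed in the submitters' processing notes. Read counts were not used here, so the depth and the precision it gives are unknown. Of 20468 symbols, 25 that a spreadsheet had turned into dates (44 rows) were left out, and rows of a symbol were summed (6 members had 2 rows).

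The 3 control and 3 deficient libraries were compared with limma 3.58.1 (R 4.3.3) on log2(FPKM + 1), with a trended prior, over 15720 genes averaging 0.5 FPKM or more, and p-values were adjusted by Benjamini and Hochberg over all of them. A gene was called at an adjusted p under 0.05. The procedure was tested on simulated data with independent noise for each gene and with changes larger than those of most members. That simulation does not cover smaller differences or shifts that genes of a library share. The log2 scale with a pseudocount of 1 understates differences of low genes. The members and the lists were chosen with earlier results of these data known. Values are named for members called, those with an unadjusted p under 0.05 and the best known member of each role, for up to 4 genes of each other list with the smallest p, for genes within 100 kb of Psrc1, and for Kdm6b. The 14 alternatives changed the pseudocount, the filter, the scaling, the weights or the libraries used. Promoter windows came from RefSeq and overlaps and lengths from GENCODE.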

Additional observations from a re-analysis of the deposited data

How the results depend on the processing

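The number of genes changed among all tested genes was 12, and it was 4 when genes of any level were tested, 3025 with limma's array weights and 2 to 23 when a library was left out. With array weights 1367 genes rose (8.70%) and 1658 fell (10.5%). Those weights ran from 0.263 for cKO_265 to 8.72 for Con_261. Of the replication genes 0 passed, and 5 did with array weights (Mcm3, Mcm7, Pcna, Rrm1 and Tyms). Of the mitosis genes 1 passed, with 0 when genes of any level were tested, 12 with array weights and 0 to 1 when a library was left out. The replication median of 0.16 ranged from 0.013 (without cKO_262) to 0.30 (without cKO_265) when a library was left out and was 0.07 with array weights. The mitosis median of 0.43 ranged from 0.35 to 0.43 when a library was left out, and without Con_253 and cKO_265 together it was 0.29. The causes of these shifts were not tested. The sign held in every alternative run for 19 of 24 mitosis genes and for 8 of 15 replication genes. Quantile normalization, which gives all libraries the same distribution of values, turned the sign of Mcm6 and Cdc6. Centring each library on its median turned that of Mki67 and Aurkb. The summed FPKM was higher in each deficient than in each control library, and its part in the differences was not tested. No paired analysis was possible because the groups share no replicate numbers. The unknown depth means that no counting error can be given for the low genes.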

Other observations

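The mitosis genes were also read by the letters of their promoters. The 14 with a CHR match had a median log2 difference of 0.44 between the Jmjd3-deficient and control libraries, with 13 higher values, and 6 of them did not overlap between the groups. The 6 without a CHR match had a median of 0.22, with 5 higher values, and 0 of them was free of overlap. Kif20a and Tpx2, which were also higher without overlap, had no promoter window and fall in neither set, as do Ccna2 and Aurkb. Over all tested genes with a promoter window the median was -0.02 with a CHR match (1581 genes) and -0.04 without (10020 genes). Of those, 154 with and 948 without a match were higher without overlap. Replication genes had a median of 0.18 with a CHR match (3 genes) and 0.17 without (10 genes), and mitosis genes one of 0.45 with an E2F match (3 genes) and 0.42 without (17 genes). The differences between promoters with and without a match were not tested. The 8 replication genes with an E2F match had a median of 0.15 and the 5 without one had a median of 0.18.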
